A study of Mus musculus with 15 samples.

Results

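Tardbp encodes TDP-43, an RNA-binding protein of the heterogeneous nuclear ribonucleoprotein family, and is described here in antigen-primed CD8+ T cells with and without costimulation. The gene was taken by its symbol, which maps to ENSMUSG00000041459.15 in GENCODE vM21, the annotation whose identifiers the count tables carry. It is 1 of 55536 annotated genes, and it held 30 of 141862 transcripts and 15 of the 138940 events of the table of fractions spliced in. Its locus is chr4:148612382-148627019 on the minus strand of mm10.

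The question behind the samples was whether costimulation of CD8+ T cells during priming in the animal changes how their RNAs are spliced. All cells came from OT-I mice, which carry a transgenic T cell receptor for the SIINFEKL peptide of ovalbumin and, by the study's methods, lack Rag1 or Rag2, so that the donor's T cells share 1 receptor. They were transferred into C57BL/6J recipients, which received the peptide with control rat IgG (Ag) or with agonist antibodies against CD134 (OX40) and CD137 (41BB) (Ag+Costim). On day 4 by the labels, a time given as shorter in places of the study's text, CD8+ donor cells bearing CD45.1 and the transgenic receptor chains were sorted from spleens and lymph nodes of the recipients. Mice of both sexes were used, with no age or sex given per library. Of 15 libraries, the 5 Ag and 5 Ag+Costim libraries were compared, and the 5 Naive libraries were not analysed here. Each library was taken as a separate sample, and the p-values measure the spread between these samples.

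TDP-43 binds UG-rich RNA through a pair of RNA recognition motifs, and its glycine-rich C-terminal part holds most of the changes found in amyotrophic lateral sclerosis. It sits mainly in the nucleus, where it represses the use of poorly defined exons and acts on the choice of 3′ ends. It also limits its own amount: high TDP-43 binds the 3′ UTR of its own RNA, which promotes splicing of an intron there and the use of other polyadenylation sites, and such RNAs are less stable or kept in the nucleus. Short isoforms made by splicing within the last exon lack most of the C-terminal part.

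The events below turn on the last exon of the full-length transcript Tardbp-202 and on the first exon. The short isoforms Tardbp-204, Tardbp-209 and Tardbp-210 leave this exon at 3 alternative donors, 9 and 18 bases apart, and the choice among them sets their number of residues. The acceptor window, chr4:148617696-148617725, is the one that these short isoforms share, with the last 2 intron bases in capitals. The next pair of windows bounds the 3′ UTR intron of 721 bases that 8 annotated transcripts splice, at chr4:148617546-148617575 and chr4:148616835-148616864, with the first and last 2 intron bases in capitals. All sequences are from the GENCODE vM21 transcripts (mm10) and from RefSeq's promoter table (GRCm38), written 5′ to 3′ on the strand of the gene.
Acceptor of the short isoforms: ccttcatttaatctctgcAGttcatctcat
Donor of the 3′ UTR intron: gtctttgacgGTgggtgttccatttttatc
Acceptor of the 3′ UTR intron: tatgtgtctttgttttgcAGccctgaatgc

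The next windows, of 30 bases each, show the annotated starts that the start-site events separate, with the first transcribed base in capitals. They belong to nodes 1, 2 and 3 of the splice graph and cover chr4:148627005-148627034, chr4:148626982-148627011 and chr4:148626744-148626773.
Start of node 1: tggtcaggcgaagccAtctaccgcgttacg
Start of node 2: cgttacgtagggggaCtcggaaggccgagt
Start of node 3: gccattttgtgggcaCggagcggtagcgcg

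Letters of the kind that TDP-43 binds were counted as TGTGTG on the transcribed strand, overlapping matches included. The 3′ UTR of Tardbp-202, 5879 bases long, held 6 matches, and its 721-base intron held 2 of them. Among 33624 non-overlapping windows of 721 bases from the longest 3′ UTRs of 21023 other protein-coding genes, 38.1% held at least 1 match and 15.7% held as many as 2. Of 525 such windows of 5879 bases, 94.9% held at least 1 match and 44.2% held as many as 6. The 941 bases that the short forms splice out at their shortest (chr4:148617706-148618646) held no match, whereas 46.4% of 3′ UTR windows of that length held one. Part of this interval is coding sequence, so the windows are not fully alike to it, and the coding sequence of Tardbp-202 held 0 matches. The longest run of TG in the 3′ UTR lay far downstream, at chr4:148613760-148613789.
Longest TG run of the 3′ UTR: tcctcctatagTGTGTGTGgacagcccaca

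Libraries differed in ways that touch the Tardbp values. Totals lay between 59.6 M and 449 M estimated counts (M for 1000000) in Ag and between 332 M and 639 M in Ag+Costim. Ag replicates 1, 3 and 4 had a count for 40441 to 51778 genes, against 20714 and 21779 in Ag replicates 5 and 2 and 28727 to 30340 in Ag+Costim. The 8 CD8 T cell markers were present in all 10 libraries, at summed levels of 4494 to 8655 counts per 1000000 counts (CPM) in Ag and 6219 to 7262 CPM in Ag+Costim, and Cd4 reached at most 5.07 CPM. The 4 B cell markers summed to 17.5 to 288 CPM in Ag, highest in replicates 1, 3 and 4, and to 14.4 to 31.5 CPM in Ag+Costim. The 3 erythroid markers summed to 8.23 to 668 CPM and 2.09 to 24.3 CPM, the 5 myeloid markers to 35.4 to 94.8 CPM and 65.2 to 139 CPM, and the NK marker Ncr1 was at most 6.04 CPM. Alas2 and Ncr1 were each at 0 in 1 library. The part of these differences in the results below was not tested beyond the values given without these 3 libraries.

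Tardbp RNA was abundant in every library, and its mean level was higher with costimulation. In Ag, the level was 78.0, 162, 94.3, 85.5 and 134 CPM in replicates 1 to 5, where CPM are taken after scaling by TMM factors (edgeR's correction for libraries of different composition). In Ag+Costim, it was 147, 155, 142, 181 and 165 CPM. The Ag+Costim libraries lay close together, whereas the Ag libraries spread from the lowest value of all to one above 3 Ag+Costim libraries, so that the groups overlapped and 2 of 5 Ag+Costim libraries exceeded the highest Ag library. The Ag mean was 110.6 ± 35.7 CPM and the Ag+Costim mean 157.9 ± 15.6 CPM (SD, n = 5 each), with coefficients of variation of 32.2% and 9.90%.

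The difference did not pass the test across all genes. Its log2 fold change of 0.51 (SE 0.21) had a Benjamini-Hochberg (BH) adjusted p of 0.261 in edgeR's quasi-likelihood test. No gene of 24262 tested passed BH 0.05 in this fit, 0% of the total, and 4501 (18.6%) had an unadjusted p under 0.05, among which Tardbp stood at position 3030. Taken as a single value, the log2 CPM differed with p = 0.0397 in a two-sided exact permutation test, which cannot go below 0.0079 with 5 against 5 libraries. Among 8626 genes with a mean of at least 10 CPM, 75.6% had a positive fold change, with a median log2 fold change of 0.24, and over all tested genes 37.7% had one. These shares follow the scaling: with library totals alone, 50.05% of the genes with at least 10 CPM had a positive fold change with a median of 0.00, and the log2 fold change of Tardbp was 0.29. In bulk RNA, fewer cells of a type and less RNA per cell cannot be told apart.

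The difference was smaller without the 3 Ag libraries with the most genes counted. Tardbp lay between 78.0 and 94.3 CPM in Ag replicates 1, 3 and 4, at 134 and 162 CPM in Ag replicates 5 and 2, and between 142 and 181 CPM in Ag+Costim. With replicates 1, 3 and 4 left out, the log2 fold change was 0.13 (BH-adjusted p = 0.536 in edgeR), a contrast that rests on 2 Ag libraries. With counts scaled by library totals alone, Tardbp stood at 117.4 ± 16.6 CPM in Ag against 144.0 ± 12.1 CPM with costimulation (SD, n = 5), and the BH-adjusted p was 0.216. Under limma's voom with each library weighted by its quality, the log2 fold change was 0.88 with a BH-adjusted p of 7.98e-05, in a fit that called 12670 genes (52.2%), and under DESeq2 it was 0.41 with an adjusted p of 0.0851. The voom fit gave weights of 0.0986 and 0.0656 to Ag replicates 2 and 5, the Ag libraries with the most Tardbp, and of 1.42, 0.508 and 2.0 to Ag replicates 1, 3 and 4.

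**Figure D1:**
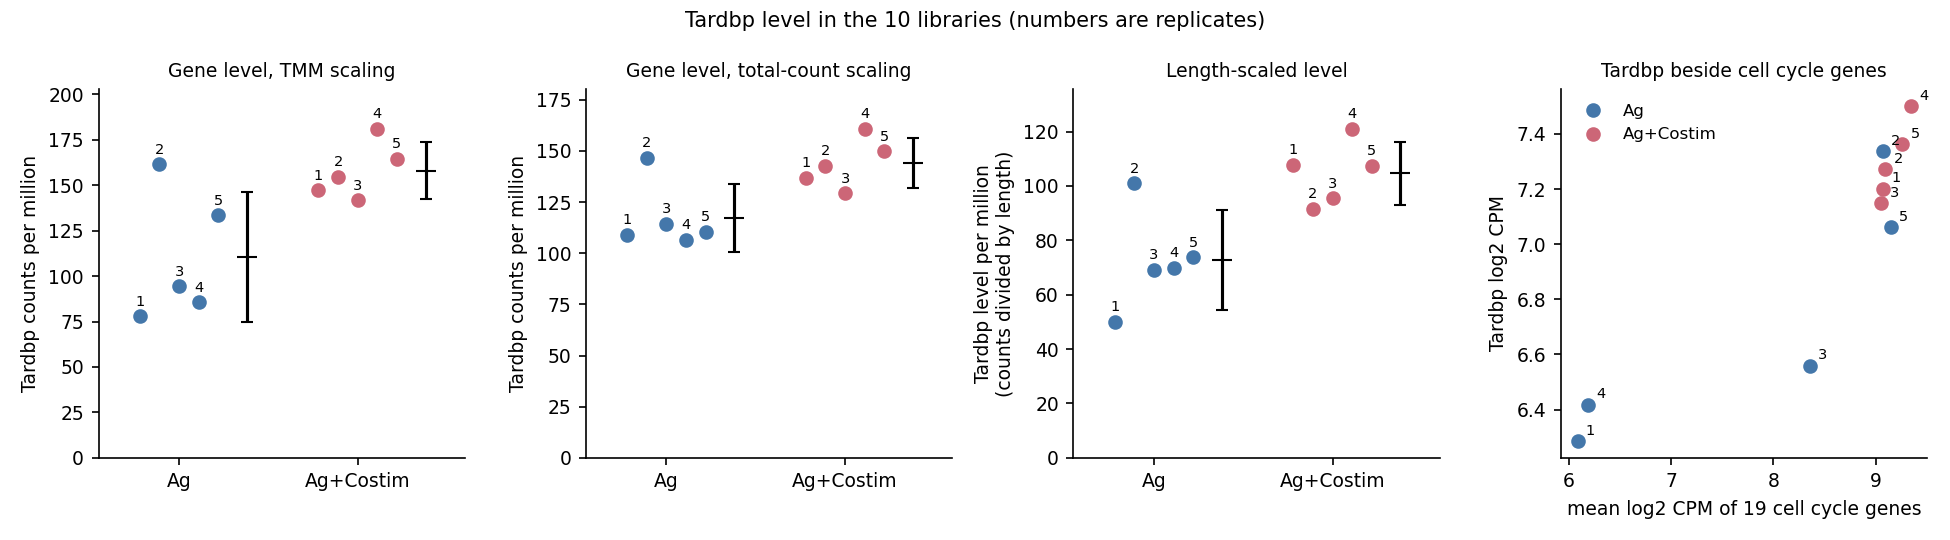
Tardbp level in each of the 10 libraries (points, numbered by replicate) with the mean and SD of each group, as CPM with TMM scaling, as CPM by total counts and as the length-scaled level (TPM), and, at the right, Tardbp log2 CPM against the mean log2 CPM of 19 cell cycle genes. Ag libraries spread from 78.0 to 162 CPM with TMM scaling and Ag+Costim libraries from 142 to 181 CPM. The Ag libraries with low Tardbp by this scaling also had low cell cycle genes.

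Counts depend on transcript length, so the level was also taken per length, as the sum over transcripts of counts divided by length, scaled to the same sum in every library as TPM (transcripts per 1000000 transcripts). By this measure Tardbp stood at 50.1, 101, 69.3, 70.0 and 73.8 in Ag replicates 1 to 5 and at 108, 91.7, 95.5, 121 and 107 in Ag+Costim. Only Ag replicate 2 reached the range of the Ag+Costim libraries, and 3 of 5 Ag+Costim libraries exceeded it. Means were 72.9 ± 18.3 and 104.7 ± 11.6 TPM (SD, n = 5), a log2 difference of 0.55 (exact permutation test, two-sided, p = 0.0238). When Ag replicates 1, 3 and 4 were left out, the log2 difference was 0.27 (exact permutation p = 0.238, where 0.0476 is the smallest possible). Ranked by this length-scaled level, Tardbp stood between positions 1610 and 2018 from the top in Ag+Costim and between 1779 and 3100 in Ag.

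With TMM scaling, cell cycle genes were lowest in the same Ag libraries in which Tardbp was lowest. Over the 10 libraries, Pearson's r between Tardbp log2 CPM and the mean log2 CPM of 19 cell cycle genes was 0.91, and within the groups it was 0.88 in Ag and 0.97 in Ag+Costim (n = 5 each), values that share their scaling. The mean log2 CPM of these genes was 6.09, 8.35 and 6.19 in Ag replicates 1, 3 and 4, 9.07 and 9.14 in Ag replicates 2 and 5, and between 9.05 and 9.34 in Ag+Costim. With this scaling, Ag replicates 1, 3 and 4 lay apart from the other libraries on both measures. By library totals alone, Tardbp stood at 109, 114, 107 and 110 CPM in Ag replicates 1, 3, 4 and 5. Ag replicate 5, with the highest cell cycle mean in Ag by TMM scaling, lay among them. The cell cycle mean by library totals was not taken, so these measures differ in scaling. The values of r within a group rest on 5 points.

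The 5 genes whose log2 CPM followed that of Tardbp most closely over the 10 libraries were Tars2, Nop14, Zw10, Ssb and Pcyox1l, among 8625 genes with at least 10 CPM. Tars2, the mitochondrial threonyl-tRNA synthetase, had r = 0.992, and 0.985 after centring within each group. Nop14, a factor of small ribosomal subunit assembly, had r = 0.988 (0.978 centred). Zw10, a protein of kinetochores and membrane traffic, had r = 0.988 (0.979 centred), and Ssb, the La protein that binds the ends of RNA polymerase III transcripts, had r = 0.988 (0.977 centred). Pcyox1l had r = 0.987 (0.980 centred). As 1809 of the 8625 genes had r above 0.9, a high r was common among genes of these libraries.

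The gene overlaps Masp2, a serine protease gene of the complement system on the opposite strand, by 3118 bases at its 3′ end. Of 7796 exonic bases of Tardbp, 1817 are also exonic in Masp2, and the library kit does not mark strand. Masp2 had between 0 and 78 counts in the 10 libraries, at most 0.732 CPM, against 6697 to 82669 counts of Tardbp, and did not pass the filter on low counts.

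Transcript counts divided Tardbp mainly among 3 annotated forms that differ in their closing exons. Tardbp-202 (7477 bases) is the full-length form of 414 residues, whose last exon holds the end of the coding sequence and the long 3′ UTR. Tardbp-204 (1904 bases) joins the first of the 3 donors to the acceptor shown above, encodes 295 residues and ends at 148616726. Tardbp-230 (1304 bases) is annotated as a target of nonsense-mediated decay, with 285 residues and the 3′ UTR intron spliced out. Estimated counts of transcripts that share most of their bases depend on the model that divided the reads, which limits all values per transcript. The annotation gives Tardbp-202, Tardbp-204 and Tardbp-201 its best support level, 1. Tardbp-230, Tardbp-209, Tardbp-210 and Tardbp-206 have its weakest level, 5.

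**Figure D2:**
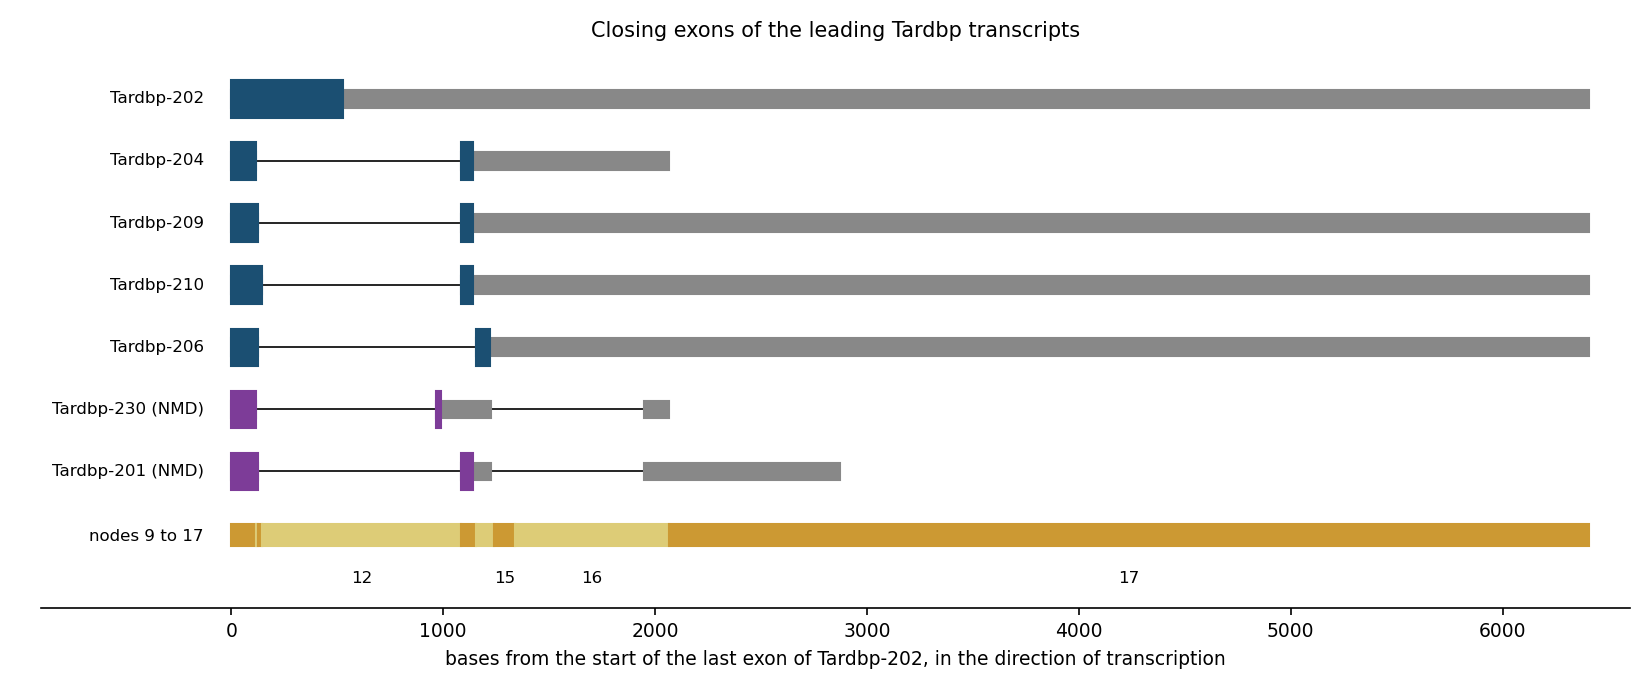
Exon structure of 7 Tardbp transcripts from the start of the last exon of Tardbp-202, in bases along the direction of transcription, with coding parts tall (blue for coding forms, purple for forms annotated for nonsense-mediated decay, NMD), other exonic parts grey, introns as lines, and nodes 9 to 17 of the splice graph below. Tardbp-202 keeps the whole exon, the other forms splice out all or most of node 12, and Tardbp-230 and Tardbp-201 also splice the 721-base intron of the 3′ UTR.

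Tardbp-202 had the larger mean share in Ag. It took 62.9%, 32.3%, 42.5%, 39.1% and 38.3% of Tardbp counts in Ag replicates 1 to 5 and 23.8%, 45.3%, 23.1%, 25.9% and 34.6% in Ag+Costim replicates 1 to 5. Only Ag+Costim replicate 2 lay among the upper Ag values, and the groups overlapped. Its mean share was 43.0% ± 11.7 against 30.5% ± 9.45 (SD, n = 5). Its own level averaged 45.5 ± 10.2 CPM for Ag libraries and 48.6 ± 15.4 CPM for Ag+Costim libraries, with a log2 fold change of 0.10 (SE 0.26, BH-adjusted p = 0.90 in edgeR).

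The short form Tardbp-204 had the larger mean share in Ag+Costim. Its share was 17.8%, 45.5%, 7.78%, 39.6% and 23.5% in Ag and 33.2%, 34.1%, 41.9%, 32.2% and 49.5% in Ag+Costim. Ag replicates 1, 3 and 5 lay below the Ag+Costim range and Ag replicates 2 and 4 within it. Means were 26.8% ± 15.5 and 38.2% ± 7.40, and the level was 32.3 ± 26.4 CPM against 60.7 ± 13.3 CPM (SD, n = 5), a log2 fold change of 0.91 (SE 0.52, BH-adjusted p = 0.503 in edgeR).

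Tardbp-230 had mean shares that lay close together, 18.9% ± 9.49 for Ag and 19.3% ± 7.43 for Ag+Costim (SD, n = 5). Single libraries ranged from 7.66% to 29.8% in Ag and from 10.5% to 28.7% in Ag+Costim. Its level had a log2 fold change of 0.49 (SE 0.49, BH-adjusted p = 0.698 in edgeR).

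The remaining named forms were minor. Tardbp-209 (298 residues) uses the second donor and the distal end and held 4.19% ± 4.22 of counts (Ag) against 4.65% ± 3.99 (Ag+Costim). Tardbp-210 (304 residues) uses the third donor, and held 1.2%, 0.569%, 0%, 1.22% and 1.36% in Ag replicates 1 to 5 and 6.34%, 1.62%, 3.06%, 3.79% and 0.637% in Ag+Costim. Of the 5 Ag+Costim libraries, 4 exceeded every Ag library and replicate 5 did not. It was the transcript of lowest p in both tests, at the level (log2 fold change 2.33, SE 1.02, BH-adjusted p = 0.463 in edgeR) and in usage (BH-adjusted p = 0.974 in edgeR's diffSpliceDGE). Tardbp-206 (302 residues) held 2.04% ± 1.0 and 1.47% ± 0.715. Tardbp-201, a form annotated for nonsense-mediated decay, held 1.49% ± 0.888 and 0.742% ± 0.412 (SD, n = 5 throughout). Each of the other 23 transcripts had a mean share under 1% in both groups.

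No Tardbp transcript passed the test of levels, and the gene did not pass the test of usage. Of 30 transcripts, 19 passed the filter on low counts, and 0 had BH under 0.05, where 6 of 59949 transcripts (0.01%) did. An unadjusted p under 0.05 was found for 1 of the 19 in the test of levels (Tardbp-210), beside 10.8% of all transcripts, and for 2 of the 19 in that of usage, beside 4.64%. The second was Tardbp-227, named after its values were seen, with 0.211% of counts in Ag and 0.0566% in Ag+Costim. In edgeR's diffSpliceDGE, which asks whether the shares of a gene's transcripts differ, the gene-level Simes p was 0.376 and the BH-adjusted p 1, with a largest difference in mean share of 0.125 as a fraction. Of 10441 genes, 31 (0.297%) were called by this test with a share difference over 0.1. Under limma's diffSplice the BH-adjusted p was 0.767.

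**Figure D3:**
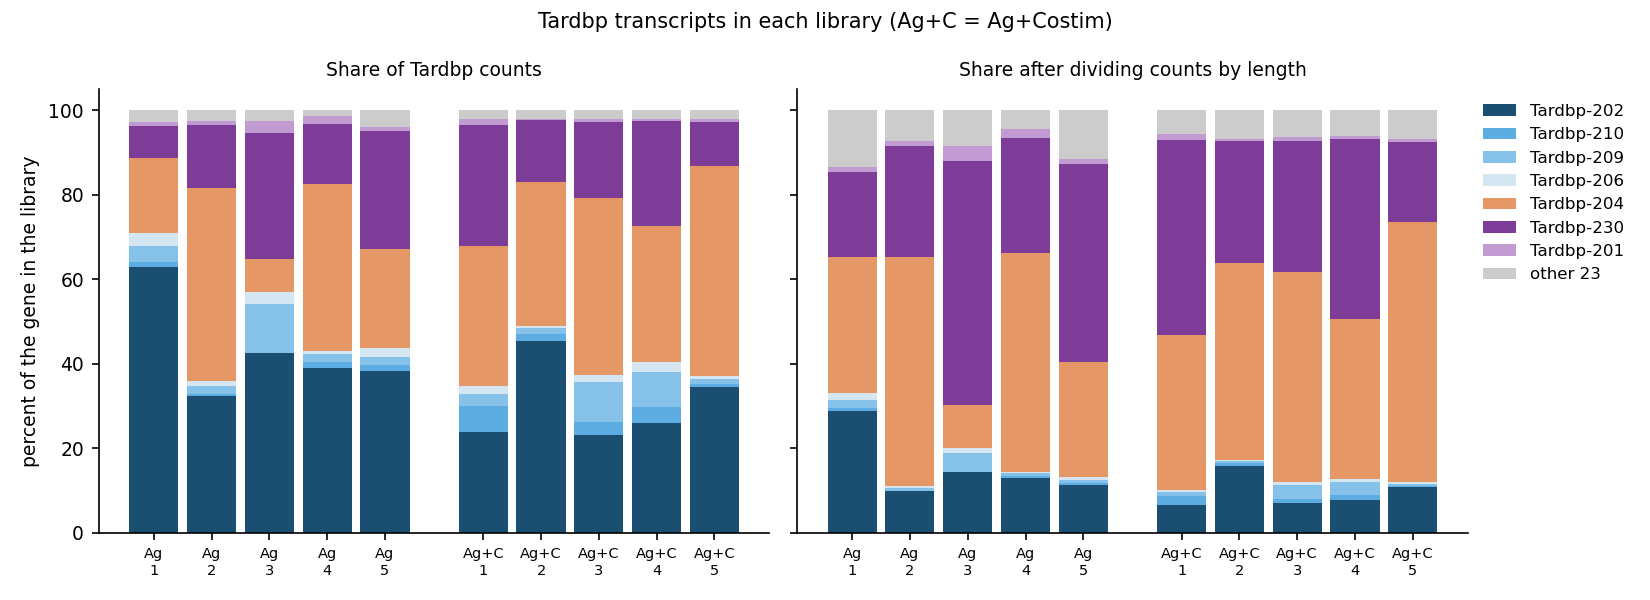
Share of Tardbp held by 7 transcripts and by the other 23 together in each of the 10 libraries, in percent of Tardbp counts (left) and in percent after dividing each count by the transcript's length (right). Tardbp-202 takes 23.1% to 62.9% of counts but at most 28.8% after division by length, and no transcript separates the groups.

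Grouped by the annotation's classes, the gene's counts showed no difference past the test. The coding class took 78.3% ± 10.3 of counts in Ag and 78.8% ± 7.68 with costimulation (exact permutation test, two-sided, p = 0.921, n = 5). Transcripts annotated for nonsense-mediated decay held 21.7% ± 10.3 and 21.2% ± 7.68, with a p of the same size (exact permutation p = 0.921). The direction of both differences turned without Ag replicate 3 or 5 or without Ag+Costim replicate 2 or 5. After division by length, transcripts annotated for nonsense-mediated decay stood for 41.8% ± 17.1 and 38.1% ± 10.9 of molecules.

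Within the coding transcripts, the balance of full-length to short forms had the lowest unadjusted p of the 14 shares tested, and did not pass. Tardbp-202 held 70.6%, 39.5%, 65.0%, 47.1% and 56.3% of the counts of Tardbp-202 and the 7 short coding forms in Ag replicates 1 to 5. In Ag+Costim it held 34.9%, 54.4%, 29.1%, 35.5% and 39.7%. Ag replicates 2 and 4 lay within the Ag+Costim range and Ag+Costim replicates 2 and 5 within the Ag range, so the groups overlapped. Means were 55.7% ± 12.7 and 38.7% ± 9.54 (SD, n = 5), a difference that did not pass the exact permutation test (two-sided p = 0.0556, BH-adjusted p = 0.247 over the 14 shares tested). Other shares had the same BH-adjusted p, and this share was added after the annotation was read. It rests mainly on Tardbp-202 and Tardbp-204, whose shares are given above. The difference was -17 percentage points, and it passed an unadjusted 0.05 in 2 of the 10 settings without a single library. These were without Ag replicate 2 (-21.0 points) and without Ag+Costim replicate 2 (-20.9 points, exact permutation p = 0.0238 for both). The first had the lowest share in Ag and the second the highest in Ag+Costim, so leaving either out widens the difference. The difference was -9.20 points without Ag replicates 1, 3 and 4 (exact permutation p = 0.333).

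The 3′ UTR intron, whose splicing is part of the gene's own control, did not differ past the test in its spliced share. Among transcripts that either splice or keep this intron, the spliced share was 9.90%, 17.1%, 34.4%, 17% and 31.4% in Ag and 31.5%, 16.1%, 20.3%, 26.8% and 12.4% in Ag+Costim. Each group spanned about the same range. The 8 transcripts counted as spliced are among the 10 annotated for nonsense-mediated decay, mainly Tardbp-230. This share is therefore nearly that of the class above and not a separate result. Means were 22.0% ± 10.5 and 21.4% ± 7.75 (exact permutation p = 0.921, two-sided, n = 5).

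Annotated 3′ ends, merged within 100 bases, gave 2 main places. The distal end at 148612382 held 70.9%, 36.0%, 57.0%, 42.9% and 43.8% of counts in Ag and 34.7%, 49.0%, 37.3%, 40.4% and 37.2% in Ag+Costim. Ag replicates 1 and 3 lay above every Ag+Costim library and the others among them. Means were 50.1% ± 13.9 and 39.7% ± 5.57, and the proximal cluster that starts at 148616636 held 47.0% ± 13.9 and 58.6% ± 5.29 (exact permutation p = 0.159 and 0.119, two-sided, BH-adjusted p = 0.247 for both, n = 5). Over the remaining libraries without Ag replicates 1, 3 and 4, the difference in the distal share was -0.16 percentage points in place of -10.4 (exact permutation p = 1), and without Ag replicate 2 alone it was -13.9 points (exact permutation p = 0.0476), with 15.3 points for the proximal cluster (exact permutation p = 0.0317). Ag replicate 2 had the lowest distal and the highest proximal share in Ag, so leaving it out widens both differences. After division by length, the proximal cluster stood for 75.0% and 83.7%, a difference of 8.72 points (exact permutation p = 0.0476). Both shares rest on the same transcripts as the shares of Tardbp-202 and Tardbp-204.

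The deposited fractions spliced in (PSI), computed from the reads with another tool, gave 1 pooled value per group and 15 Tardbp events. With no value per library, their differences have no replicate check. Over the whole table, 11.9% of events differed by more than 0.05 between the groups, and 2 of the 15 Tardbp events did, both of them start sites, a type in which 28.7% of all events differed by that much. The same 2 events were past 0.1, as were 5.87% of all events.

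The start-site events had the largest differences of the gene. The third start (chr4:148626681-148626758) had PSI values of 0.774 in Ag and 0.937 in Ag+Costim, a difference of 0.163. The second start (chr4:148626759-148626996) had 0.225 and 0.0628, and the first start (chr4:148626997-148627019) had 0.0398 and 0.0148. In the transcript counts, forms that begin at the third start held 26.3%, 62.1%, 38.6%, 54.5% and 53.4% of the counts at these 3 starts in Ag and 63.2%, 49.6%, 61.1%, 58.2% and 61.3% in Ag+Costim. The forms counted there were Tardbp-204, Tardbp-216, Tardbp-225 and Tardbp-230. Their share rests mainly on Tardbp-204 and Tardbp-230, as that of the proximal 3′ end does, and is not a separate measure of start use. Of the Ag libraries, replicates 2, 4 and 5 lay within the Ag+Costim range and replicates 1 and 3 below it. Means were 47.0% ± 14.4 and 58.7% ± 5.36, which did not pass the exact permutation test (p = 0.143, two-sided, n = 5). After division by length these forms stood for 77.6% and 85.4%. Leaving out Ag replicates 1, 3 and 4 gave a difference in counts of 0.93 percentage points in place of 11.7 (exact permutation p = 0.952), and leaving out Ag replicate 2 gave 15.5 points (exact permutation p = 0.0397). Ag replicate 2 had the highest share of this start in Ag, so leaving it out widens the difference. Transcripts that begin at the second start held 8.83% ± 5.31 and 10.2% ± 5.95 of counts (exact permutation p = 0.683), and 5.25% and 4.29% after division by length, so the sign of this difference turned with the measure. Tardbp-202, the 1 transcript counted at the first start, held 44.2% ± 12.1 and 31.2% ± 9.65 of counts (exact permutation p = 0.0794), or 17.1% and 10.3% after division by length, beside PSI values under 0.04. Leaving out Ag+Costim replicate 2 gave a difference of -16.8 percentage points at this start (exact permutation p = 0.0238). That library had the highest share of this start in Ag+Costim, so leaving it out widens the difference. As this is the share of Tardbp-202 among the 3 starts, it is not a separate measure of start use.

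The core exons were included almost fully in both groups. Nodes 6 to 9 had PSI values of at least 0.999 in Ag and in Ag+Costim, and over all core exons 5.5% differed by more than 0.05. Among transcript counts, inclusion of these 4 exons was at least 99.9% in every library. Exons that encode the RNA recognition motifs lie among them.

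The retained interval of the last exon (node 12, chr4:148617706-148618646), which only the full-length form contains whole, had PSI values of 0.521 in Ag and 0.550 in Ag+Costim. By transcript counts its inclusion averaged 43.3% ± 11.9 against 30.7% ± 9.51 (Ag against Ag+Costim, SD, n = 5), a difference of -12.6 percentage points that did not pass the exact permutation test (p = 0.0873, two-sided, BH-adjusted p = 0.247). Tardbp-202 is the 1 transcript counted as included, so this is nearly its share of counts given above and not a separate result. The PSI and the counts thus had differences of opposite sign, the first of 0.029 with no replicates and the second within the spread of the libraries. Leaving out Ag replicates 1, 3 and 4 gave -4.90 percentage points by counts (exact permutation p = 0.524), and leaving out Ag+Costim replicate 2 gave -16.4 points (exact permutation p = 0.0238). Ag+Costim replicate 2 had the highest inclusion in its group, so leaving it out widens the difference.

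The 2 alternative donor nodes between these donors of the last exon had PSI values of 0.753 and 0.741 for node 10 (9 bases) and 0.539 and 0.570 for node 11 (18 bases), in Ag and Ag+Costim. By counts, their inclusion was 53.4% ± 14 and 41.6% ± 5.16 for node 10 and 44.3% ± 12.1 and 33.9% ± 8.16 for node 11 (exact permutation p = 0.119 and 0.135, two-sided, n = 5). The difference for node 10 passed an unadjusted 0.05 without Ag replicate 2, and that for node 11 without Ag+Costim replicate 2 (exact permutation p = 0.0317 for both). These libraries had the lowest node 10 inclusion in Ag and the highest node 11 inclusion in Ag+Costim, so leaving them out widens the differences. Tardbp-202 held most of the counts that include either node, so neither is a separate result. The acceptor node 13 (70 bases) had PSI values of 0.947 and 0.946, and 97.7% ± 1.03 and 98.4% ± 0.766 by counts (exact permutation p = 0.262, two-sided). None of these events differed by more than 0.05 in PSI, where 27.4% of alternative donors, 25.6% of alternative acceptors and 31.6% of retained introns in the table did.

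For 3′ ends, the PSI table and the transcript counts placed the gene's RNA differently. The most distal segment (node 17, chr4:148612382-148616725) had PSI values of 0.0104 and 0.00451, whereas transcripts with the distal end held 50.1% and 39.7% of counts, or 18.4% and 12.8% after division by length. Node 15 (chr4:148617451-148617553) had PSI values of 0.741 and 0.763, whereas Tardbp-223, the 1 transcript annotated to end there, held 0.373% and 0.134% of counts. Node 16 (chr4:148616726-148617450) had 0.249 and 0.233, and node 14 (chr4:148617554-148617635) was at 0.000316 and 0.000164. None of the 4 end events differed by more than 0.05 between the groups, where 43% of all end events did.

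**Figure D4:**
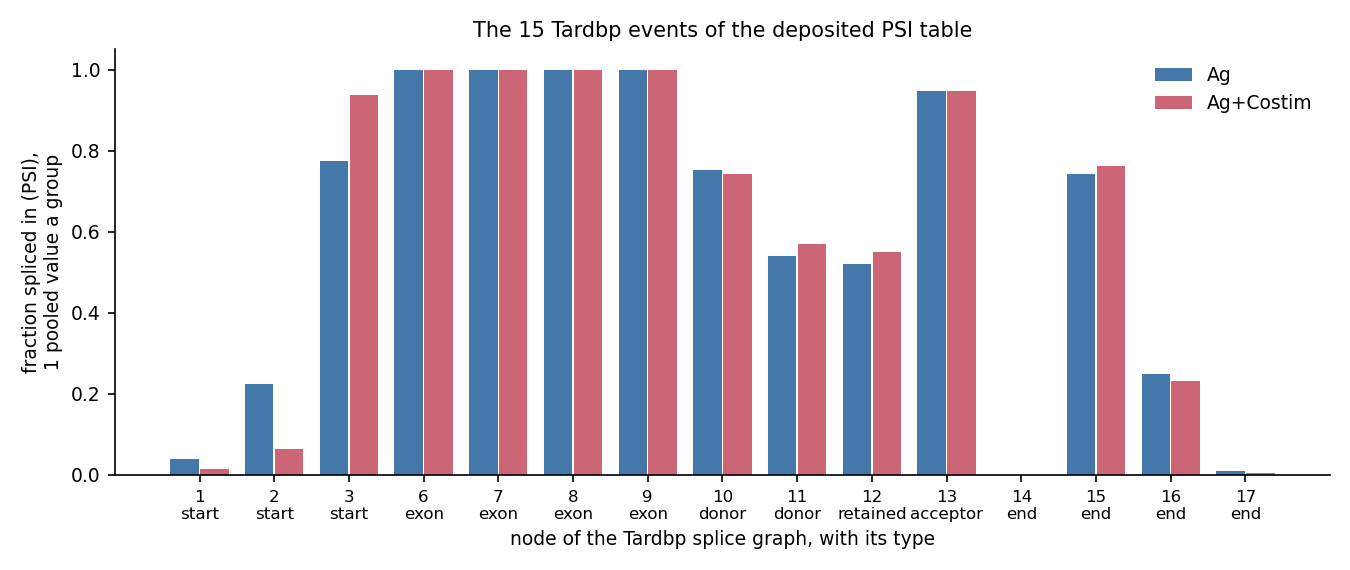
Fraction spliced in (PSI, 0 to 1) of the 15 Tardbp events in Ag and Ag+Costim, 1 pooled value a group, in the order of the nodes of the splice graph. The start-site nodes 2 (0.225 and 0.0628) and 3 (0.774 and 0.937) are the 2 events that differ by more than 0.05.

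None of the genes of proteins that TDP-43 is known to work with passed the test across all genes. The list held 27 genes: other RNA-binding proteins, processing enzymes of microRNAs, kinases that phosphorylate TDP-43, import receptors and factors of protein quality control. Of 26 genes that passed the filter on low counts, 0 had BH under 0.05, 15 had an unadjusted p under 0.05 and 22 had a positive fold change. Among genes with at least 10 CPM, 23.1% had such a p and 75.6% a positive fold change, so the positive share of the list was near that of genes at this level. The median log2 fold change was 0.45, beside 0.24 among all genes with at least 10 CPM. In 7 of the 26, every Ag+Costim library exceeded every Ag library, as in 4.48% of all genes and 11.3% of those with at least 10 CPM, and in 0 was every one lower, as in 1.13% of all genes. By library totals alone, 19 of the 26 had a positive fold change and the median was 0.16. DESeq2 called 8 and limma voom with weights 19 of the list, beside 14.3% and 52.2% of all genes these tools tested. Among the 8626 genes with at least 10 CPM they called 928 and 6057, so the voom count of the list was near the share of such genes. Left without Ag replicates 1, 3 and 4, edgeR called 6 of the list, beside 2752 of 25394 genes (10.8%).

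Of the partners of lowest p with at least 10 CPM in the higher group, 3 are given here, and none passed. Drosha, the nuclear nuclease that cuts primary microRNAs, stood at 29.4, 40.6, 48.2, 35.1 and 31.3 CPM in Ag replicates 1 to 5 and at 58.5, 61.5, 62.9, 82.9 and 72.7 CPM in Ag+Costim. Every Ag+Costim library exceeded every Ag library, with a log2 fold change of 0.88 (SE 0.17, BH-adjusted p = 0.134 in edgeR). Taf15, an RNA-binding protein tied to transcription, had a log2 fold change of 1.15 (4.59 ± 1.38 against 10.2 ± 0.711 CPM). Kpnb1, the importin that carries TDP-43 into the nucleus with importin alpha, had a log2 fold change of 0.86 (98.6 ± 22.9 against 179 ± 17.5 CPM). The groups did not overlap in either gene, and the BH-adjusted p was 0.134 and 0.141 in edgeR.

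On the length-scaled level, Tardbp stood 11th among itself and its 27 partners by the Ag+Costim mean. Hnrnpa2b1, an hnRNP protein that binds TDP-43, led at 1969 ± 109 TPM, against 1171 ± 316 in Ag. Sqstm1, an autophagy receptor, stood just above Tardbp at 148 ± 20.6, and Csnk1d, a casein kinase, just below at 85.7 ± 6.95 TPM in Ag+Costim. The intervals of mean ± SD did not meet between Tardbp and either neighbour in Ag+Costim, while in Ag the order of Tardbp (72.9 ± 18.3) and Csnk1d (83.5 ± 21.3) was the reverse, within their spread.

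RNAs known as targets of TDP-43 in other tissues had fold changes of both signs. Of 13 genes, all tested, 0 had BH under 0.05, 5 had an unadjusted p under 0.05, 7 had a positive fold change and the median log2 fold change was 0.13, or -0.15 with 5 positive by library totals alone. Over all genes 18.6% had such a p and 37.7% a positive fold change, and over those with at least 10 CPM 23.1% and 75.6%. In 3 of the 13 the groups did not overlap, all with Ag+Costim higher, beside 4.48% of all genes and 11.3% of those with at least 10 CPM. Adnp2, whose cryptic exon TDP-43 represses, stood at 18.9 ± 2.62 CPM (Ag) and 29.7 ± 4.11 CPM (Ag+Costim) (log2 fold change 0.65, SE 0.15). Hdac6, a cytoplasmic deacetylase, stood at 20.3 ± 8.04 and 38.2 ± 2.05 CPM (log2 fold change 0.92, SE 0.26), and Poldip3, an export adaptor with an exon that depends on TDP-43, at 162 ± 14 and 213 ± 11.7 CPM (0.39, SE 0.12). Malat1, a long nuclear RNA, had the opposite sign, at 1243 ± 954 and 340 ± 76.7 CPM (log2 fold change -1.87, SE 0.50), and its groups overlapped. The BH-adjusted p of these 4 lay between 0.149 and 0.221 in edgeR. With Ag replicates 1, 3 and 4 left out, edgeR called 5 of the 13, beside 10.8% of all genes in that fit, and the log2 fold change of Malat1 was -0.64.

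A further 10 genes are tied to TDP-43 in the text of the study, which chose them on these or related samples, so their direction is not independent evidence. Of the 10, 0 had BH under 0.05, 5 had an unadjusted p under 0.05, 8 had a positive fold change and the median log2 fold change was 0.34 (6 and 0.05 by library totals alone). The positive share lay near the 75.6% of genes with at least 10 CPM, 23.1% of which had an unadjusted p under 0.05. Ikzf1, the transcription factor Ikaros, stood at 142, 136, 149, 159 and 118 CPM in Ag replicates 1 to 5 and 235, 241, 218, 270 and 247 CPM in Ag+Costim, without overlap (log2 fold change 0.78, SE 0.13, BH-adjusted p = 0.117 in edgeR). Skp2, a subunit of a ubiquitin ligase of the cell cycle, had a log2 fold change of 1.19 (13.8 ± 6.55 against 31.5 ± 5.09 CPM). Dhx30, an RNA helicase, had 0.39 (88.6 ± 7.55 against 117 ± 7.61 CPM), and Mbnl1, a splicing regulator, had 0.44 (402 ± 67.2 against 545 ± 21.3 CPM). None of these overlapped between the groups, and their BH-adjusted p lay between 0.194 and 0.240 in edgeR. With Ikzf1, 4 of the 10 did not overlap, beside 4.48% of all genes and 11.3% of those with at least 10 CPM with Ag+Costim higher. These 4 were also the members named for their lowest p. Without Ag replicates 1, 3 and 4, edgeR called 5 of the 10, beside 10.8% of all genes in that fit.

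**Figure D5:**
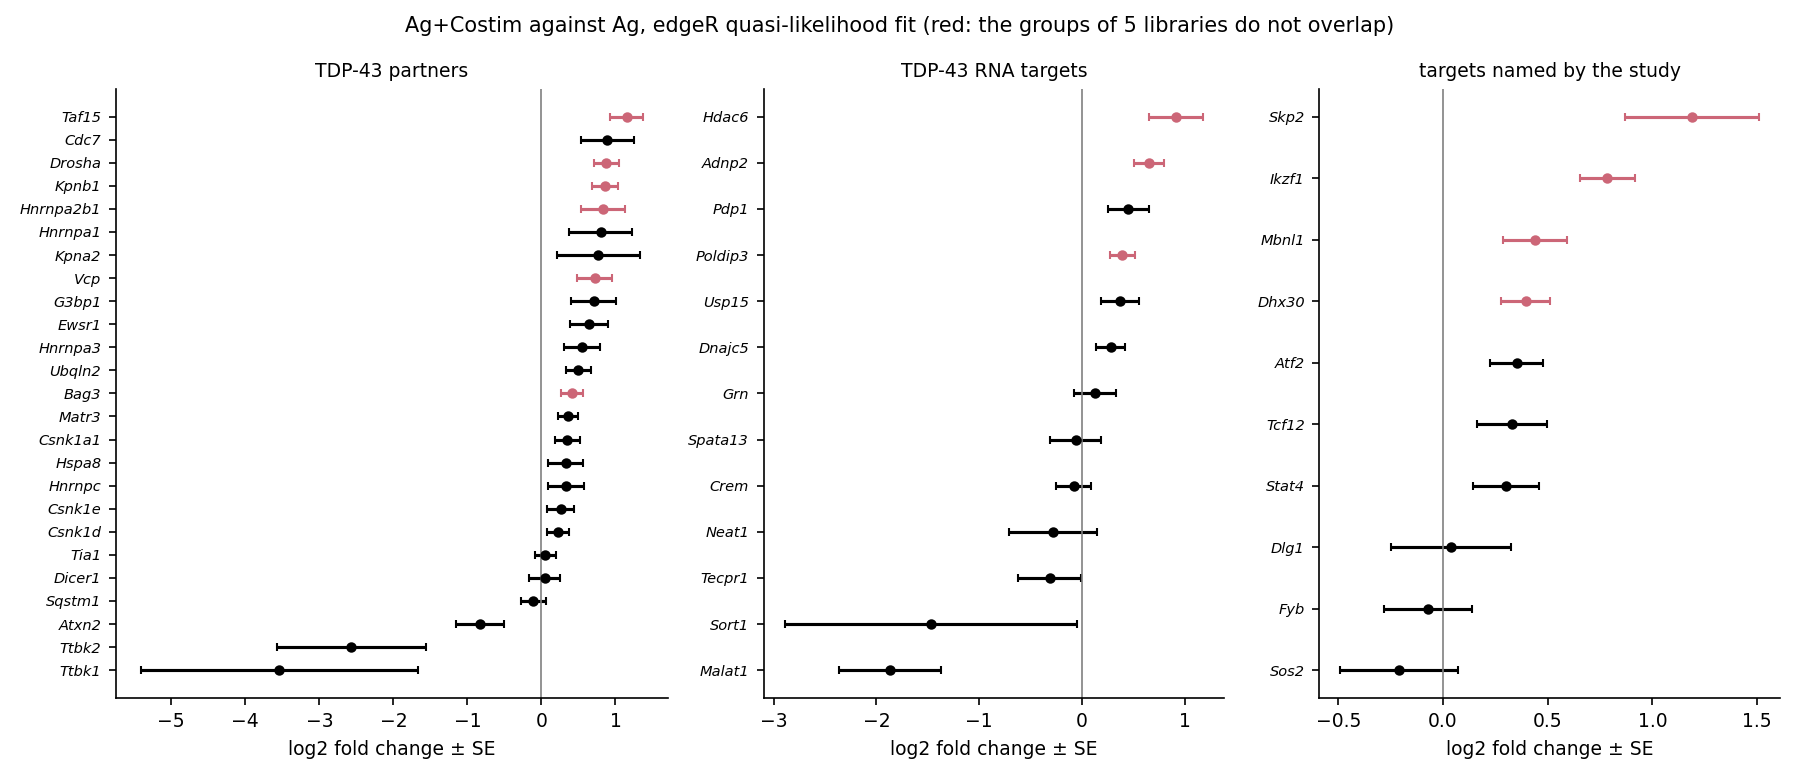
Log2 fold change (Ag+Costim against Ag, edgeR) with its standard error for genes of the 3 lists, 25 of the 26 tested partners among them, in red where all 5 Ag+Costim libraries lay above all 5 Ag libraries. Of all tested partners 22 of 26 had a value above 0, of the RNA targets 7 of 13 and of the targets named by the study 8 of 10, beside 75.6% of all genes with at least 10 CPM.

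Few core exons of the target genes were past 0.05 in PSI. Among the 13 RNA targets, 2 of 117 core exons (1.71%) differed by more than 0.05, beside 5.5% of all core exons, and these lay in Usp15, a deubiquitinase, with 0.917 in Ag and 0.986 in Ag+Costim, and in Crem, a cAMP-responsive regulator, with 0.395 and 0.485. Among the 10 genes named by the study, 3 of 161 core exons (1.86%) did, 2 in the transcription factor Atf2 (0.130 and 0.196, and 0.870 and 0.931) and 1 in the Ras exchange factor Sos2 (0.898 and 0.968). All 5 exons had the higher PSI in Ag+Costim, but the direction of all core exons past 0.05 was not counted, so this has no background. These exons were named after their values were seen. Over all event types, 24 of 186 events of the RNA targets (12.9%), 42 of 239 of the genes named by the study (17.6%) and 35 of 411 of the partners (8.52%) were past 0.05, beside 11.9% of all events. The study chose most of its named genes by events that differed between these same groups. Their share past 0.05 is therefore set in part by that choice and is not independent evidence.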

How the data were processed

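RNA of sorted cells was made into libraries with SMART-Seq v4 and Nextera XT, a kit that does not mark strand. Per the labels and the study's methods, the authors aligned reads to mm10 with HISAT2 2.1.0, sorted them with SAMtools 1.9 and obtained estimated counts per gene and transcript with StringTie 2.1.0. The deposited tables hold these estimated counts (expected counts), not normalized, given as whole numbers. The authors also ran Whippet on the reads, with its version not given in the sources used here. Their deposited table holds the PSI of each event as a fraction, 1 pooled value a group. Its columns with the authors' own difference, probability, complexity and entropy were not used, and the Naive counts and the sheets of the sequencing run were not used here. Rows without an annotated gene, between 0.0458% and 0.308% of counts per library, stayed out of totals and tests.

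Gene and transcript levels were fitted over the whole tables with edgeR 4.0.16 (quasi-likelihood, robust, filterByExpr, TMM) in R 4.3.3, with BH over all features and a threshold of 0.05, and usage with diffSpliceDGE. The SE is that of the fitted log2 fold change. DESeq2 1.42.0, limma 3.58.1, other scalings and filters, and leaving out each library were the alternatives, with the fit without Ag replicates 1, 3 and 4 added after the data were seen. Shares per library were compared by exact permutation tests with BH over 14 shares. Inclusion is the share of counts of transcripts that contain a node among those that span it, and start nodes were taken by where transcripts begin. The share of the 3′ UTR intron and the full-length share were added after the annotation was read. Only edgeR's tests of gene levels and of usage were run on simulated counts, that of usage with an assumed spread. The exact permutation tests, DESeq2 and limma were not checked in this way.

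Named were Tardbp, its transcripts with at least 1% of counts, its events, its overlapping gene, the 5 genes of most alike pattern and, from each list, the 4 members of lowest p with at least 10 CPM in the higher group, since none passed, of which 1 is not reported here. Tardbp, the lists and the tests were chosen with earlier results of these data known. Depth was 59.6 M to 639 M estimated counts. These are derived from coverage and are not numbers of reads, so no counting interval was given.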

Additional observations from a re-analysis of the deposited data

Results flagged for a closer look

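In 46 groups of 5 libraries checked for a library far from the others, over the Tardbp levels, transcript shares and grouped shares, 1 value stood apart. Tardbp-209, the short form that uses the second donor and the distal end, held 11.6% of Tardbp counts in Ag replicate 3, against 1.75% to 3.78% in the other 4 Ag libraries. The gap to the nearest library was 0.794 of the range of the group, where 0.71 is the limit for 5 samples. Such a limit is passed by chance in about 1 in 20 groups. Ag replicate 3 had the lowest total, 59.6 M counts, with 6697 on Tardbp and 776 on this transcript, and 2 Ag+Costim libraries held similar shares of 9.44% and 8.46%.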

How the results depend on the processing

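The log2 fold change of Tardbp was positive under all 18 alternatives, from 0.13 to 0.88, and its BH-adjusted p lay between 7.98e-05 and 0.536. It passed 0.05 only under limma voom with quality weights (0.88). Leaving out each library gave 0.41 to 0.71, with BH-adjusted p of 0.119 to 0.449. With the replicate number as a block, the log2 fold change was 0.57 (BH-adjusted p = 0.496 in edgeR). The numbers were not taken as pairs, since deviations of same-numbered libraries correlated at 0.25, 0.13, -0.10, -0.30 and 0.12 over 8626 genes, and the block called 0 genes. Under the block, the exact sign-flip test gave p = 0.9375 for the coding share and 0.3125 for the distal end, where 5 pairs cannot go below 0.0625.

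Counts of called genes depended on the tool. DESeq2 called 8 partners, 4 RNA targets, 3 targets named by the study and 6214 genes in all. Limma voom with weights called 19, 8, 5 and 12670, and edgeR without Ag replicates 1, 3 and 4 called 6, 5, 5 and 2752. The other scalings, the unfiltered fit, the block and each fit without a single library called 0. The cause was not tested. Against TMM, scaling by library totals moved the median log2 fold change of all genes from -0.32 to -0.65 and their positive share from 37.7% to 24.3%, and turned the median of the RNA targets to -0.15.

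The difference in the coding share (0.47 percentage points) ranged from -2.65 to 3.44 without single libraries, that of the share annotated for nonsense-mediated decay from -3.40 to 2.67 and that of the spliced 3′ UTR intron from -3.57 to 2.57. The share of the second start differed by 1.33 points, and by -0.97 after division by length. Also without single libraries, the distal share ranged from -13.9 to -5.21 points and the inclusion of node 12 from -16.4 to -7.6. They passed an unadjusted 0.05 without Ag replicate 2 (exact permutation p = 0.0476) and without Ag+Costim replicate 2 (exact permutation p = 0.0238), respectively. The full-length share of coding counts ranged from -21.0 to -13.3 and also passed without either of these. Each time, the library left out was the one of its group that lay furthest towards the other group, so the difference widens without it. These shares rest largely on Tardbp-202 and are not separate results. With transcripts of support level 1 to 3 alone, the distal share differed by -17.4 points and the proximal cluster by 19.2. Neither passed an unadjusted 0.05 in that setting. The BH-adjusted p of usage stayed above 0.05 under 15 alternatives, the lowest being 0.0914 without Ag replicates 1, 3 and 4. Counts were deep, and the spread between Ag libraries limits every comparison here.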
